A study of Mus with 15 samples.

Results

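The genes that encode subunits of glutamate and GABA receptors were examined for the ubiquitin mark on histone H2A (H2Aub) in mouse thalamus. Members were chosen by gene symbol among the 20661 protein-coding genes on chromosomes 1 to 19 of the mouse mm10 assembly. The symbol had to be Gria, Grik, Grid or Grm followed by a digit, Grin1, Grin2a to Grin2d, Grin3a or Grin3b, or Gabr followed by a letter, and 41 genes met this rule. The rule uses no H2Aub value. For each gene, the peaks that overlapped the gene body and the 5 kb on either side of it were taken from each library, and their summed length inside this window is called the covered length.

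H2Aub had been profiled by ChIPmentation, an immunoprecipitation of chromatin in which the Tn5 transposase adds the sequencing adapters on the beads. Thalami came from hemizygous male mice aged 2 to 4 months. Controls, labelled WT, were littermates with a floxed Maged1 allele per the methods of the study. In the conditional knockouts (cKO), Vglut2-Cre deleted Maged1 in cells that express this transporter of glutamatergic neurons, and other thalamic cells were not targeted. All mice received saline for 3 days and then 5 daily injections of either cocaine (intraperitoneal, 20 mg/kg) or saline. The 11 libraries, each from 3 to 4 pooled thalami per the labels, comprised 3 cocaine and 3 saline libraries from WT mice and 2 cocaine and 3 saline libraries from the cKO. The peak lists hold no expression values, so neither the deletion of Maged1 nor the thalamic origin of the tissue could be checked in them.

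Most fast excitation in the brain runs through ionotropic glutamate receptors, which are tetramers of AMPA, kainate or NMDA receptor subunits. Metabotropic glutamate receptors (mGlu) act through G proteins, with group I receptors raising intracellular calcium and groups II and III lowering cyclic AMP and transmitter release. GABA-A receptors are pentameric chloride channels that carry fast inhibition, and in the thalamus they act both at synapses and, with the delta subunit, outside them. H2Aub is placed by Polycomb repressive complexes and is known mainly from genes that are silent or held at a low level.

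The cKO cocaine and cKO saline libraries numbered 1 stood apart from the other 9. They held 54653 and 80713 peaks against 7271 to 26055 in the others, the highest fold enrichment in them was 31.2 and 52.6 against 5.98 to 12.2, and their peaks were narrower, with median widths of 206 and 198 bp against 242 to 429 bp. Results that rest on these libraries are therefore given with and without them. The lists carry no read counts, so the depth of each library is unknown, the study stating a minimum that all passed, and a longer list cannot be told apart from more marked chromatin. Because the only gene table of this build gave no strand, gene ends are named by their lower or higher coordinate and not as start sites.

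H2Aub peaks lay in a minority of the receptor genes in all libraries but the cKO libraries numbered 1. In WT cocaine libraries 14, 17 and 15 of the 41 genes had a peak (37.4% ± 3.73, SD, n = 3), and in WT saline libraries 13, 13 and 9 (28.5% ± 5.63, SD, n = 3). The cKO cocaine libraries had 36 and 12 such genes (58.5% ± 41.4, SD, n = 2) and the cKO saline libraries 36, 8 and 9 (43.1% ± 38.7, SD, n = 3). Over all coding genes the group means were 25.4, 20.3, 38.0 and 30.3% in the same order, and in each of the 11 libraries the share was higher among the receptor genes. Receptor genes are also longer, with a median length of 183 kb against 17.5 kb, and so offer more sequence to a peak. Per megabase of window, they carried 0.0936 to 0.309 times the covered length of all coding genes in the 9 libraries, and 0.50 and 0.52 times in the cKO libraries numbered 1.

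**Figure D1:**
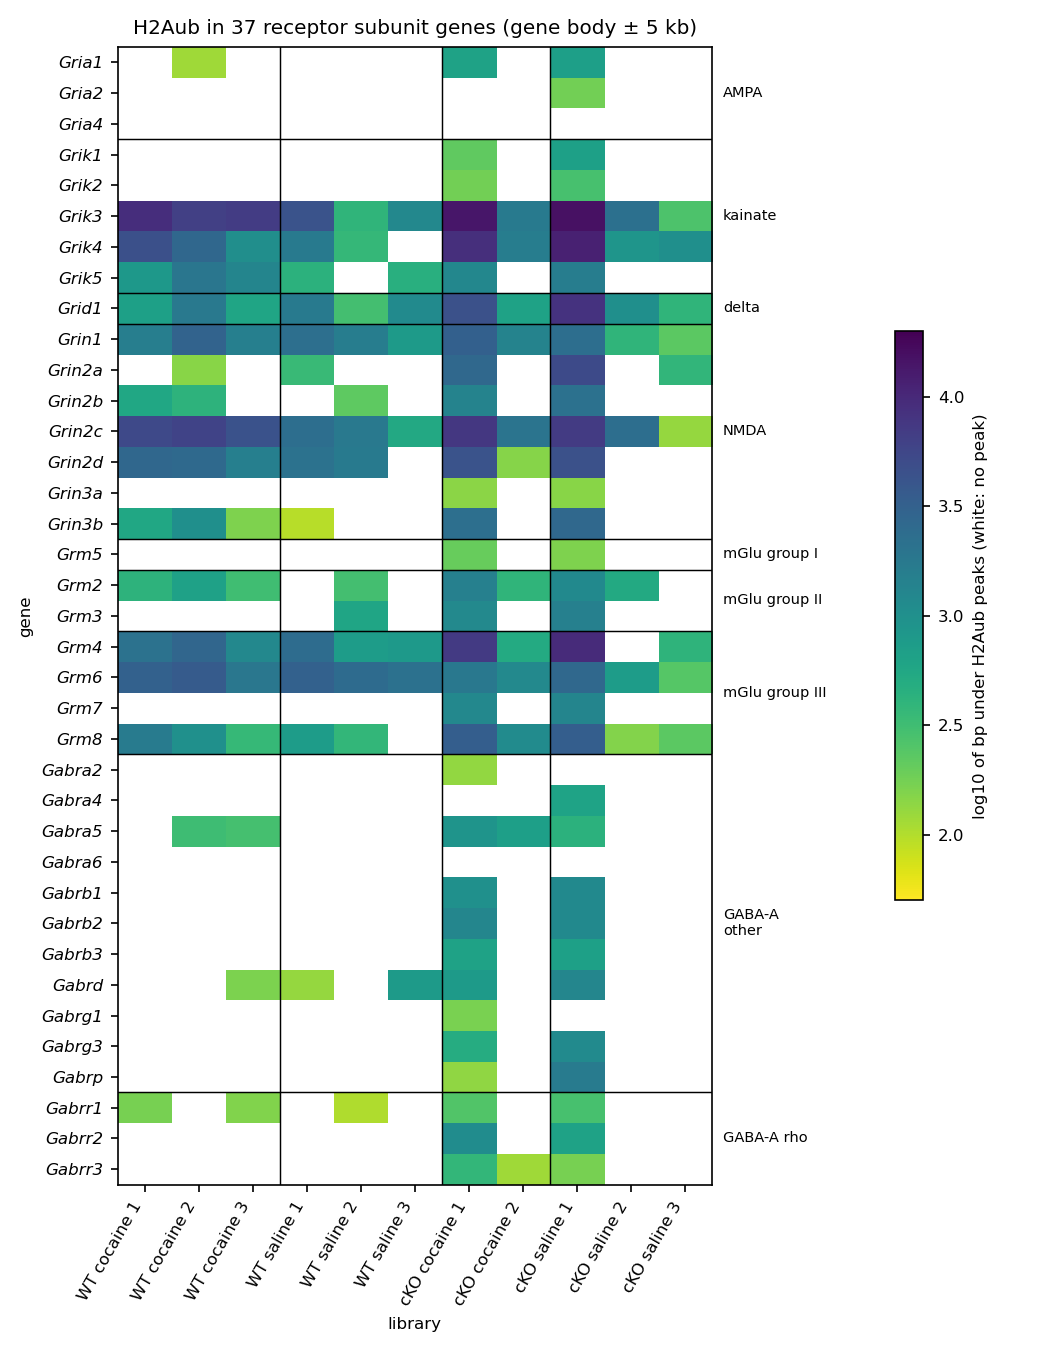
Covered length of 37 of the 41 receptor genes (rows, by family) in the 11 libraries (columns), as the log10 of the base pairs under H2Aub peaks; white cells hold no peak. Grik3, Grin2c, Grm6, Grid1 and Grin1 are filled in all 11 columns, and the GABA-A rows are filled mainly in the cKO libraries numbered 1.

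**Figure D2:**
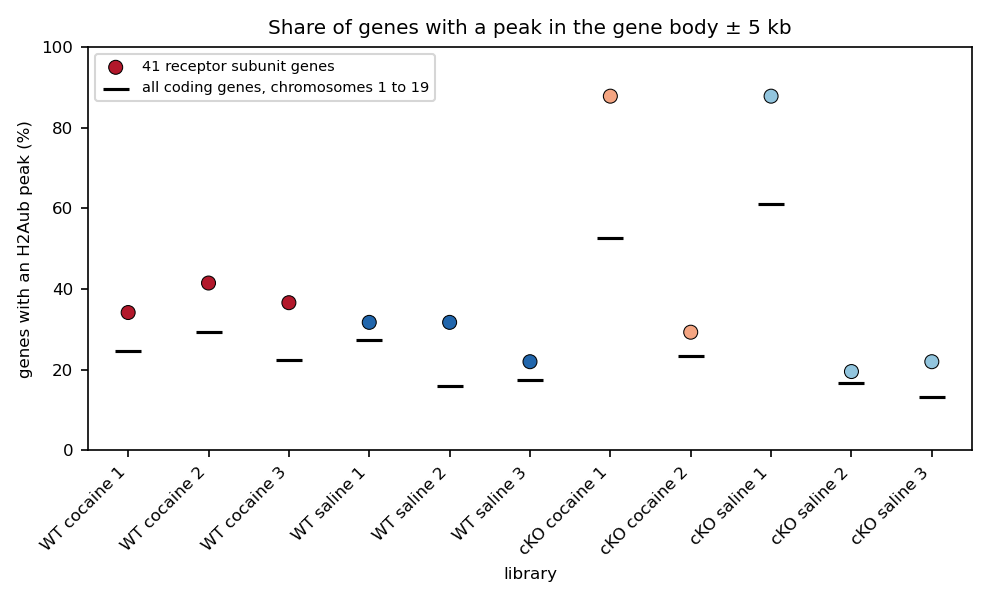
Share of genes with at least 1 H2Aub peak in the gene body or the 5 kb beside it, in percent, for the 41 receptor genes (circles, colored by group) and for all coding genes on chromosomes 1 to 19 (bars) in each library. The circle lies above the bar in each of the 11 libraries, and the cKO libraries numbered 1 lie highest at 87.8%.

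The mark was unevenly spread over the 41 genes. In the 9 libraries left after setting aside the cKO libraries numbered 1, 11 genes (26.8%) had a peak in at least 5 libraries, 11 in 1 to 4 libraries and 19 (46.3%) in none. Among all coding genes, 19.6% had a peak in at least 5 of the 9 libraries and 58.1% in none. The 11 recurrent genes were Grik3, Grin2c, Grm6, Grid1 and Grin1 (9 of 9 libraries), Grik4, Grm4 and Grm8 (8 of 9), Grin2d and Grm2 (6 of 9) and Grik5 (5 of 9). Both short and long genes were among them. Of the receptor genes shorter than 50 kb, 5 of 11 (45.5%) were recurrent against 16.3% of coding genes of that length, whereas of those longer than 400 kb, 3 of 11 (27.3%) were, against 41.5% of coding genes. Between 50 and 200 kb, 2 of 11 (18.2%) were recurrent against 28.2% of coding genes. Between 200 and 400 kb, 1 of 8 (12.5%) was, against 41% of coding genes.

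**Figure D3:**
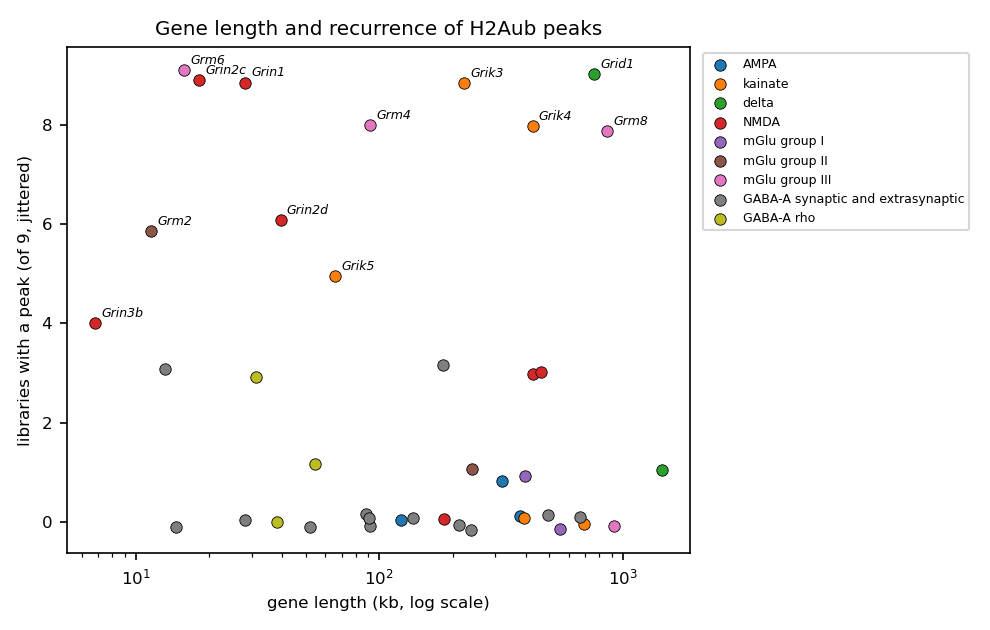
Number of libraries with a peak (of 9, without the cKO libraries numbered 1; points shifted slightly at random up and down) against gene length in kb on a log scale for the 41 receptor genes, colored by family. Recurrent genes are found among both short genes, such as Grm6 and Grin2c, and long genes, such as Grid1 and Grm8, and the GABA-A genes lie at 3 libraries or fewer.

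Peaks that recurred at the same place lay close to a gene end. Merging overlapping peaks across the 9 libraries left 11 regions that were present in at least 5 of them, in 9 genes, and the midpoint of the farthest was 2.71 kb from a gene end. The cKO libraries numbered 1 also had a peak in each of the 11 regions.

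Of the 41 genes, the kainate receptor gene Grik3 had the largest mean covered length over the 11 libraries (5630 bp), and also over the 9 without the cKO libraries numbered 1 (3631 bp). It encodes a kainate subunit with low glutamate affinity and occupies chr4:125490259-125714173. Its covered length was 9206, 6432 and 6907 bp in the WT cocaine libraries and 4336, 399 and 1224 bp in the WT saline libraries. In the cKO it was 13893 and 1709 bp after cocaine and 15359, 2195 and 268 bp after saline. WT cocaine libraries thus exceeded all WT saline libraries, while the cKO groups overlapped. The mark lay on both sides of the lower-coordinate end, as a region just outside the gene (chr4:125484870-125490220, 7 of 9 libraries) and a region just inside it (chr4:125490722-125493697, 6 of 9). In the WT cocaine libraries the outer region had 4013, 3763 and 2874 bp under peaks against 1629, 0 and 879 bp in WT saline.

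Grik4, a high-affinity kainate subunit that needs a low-affinity partner to form a channel, differed from Grik3 in layout. Its covered length was 4610, 2719 and 1038 bp in the cocaine and 1697, 371 and 0 bp in the saline libraries of WT mice, with 8985 and 1566 bp after cocaine and 11444, 870 and 1007 bp after saline in the cKO. The treatments overlapped in both genotypes. Over the 9 libraries, 12.4% of the covered length of Grik4 lay at its gene ends, against 56.0% for Grik3, and the rest was made of short peaks scattered along 427 kb of gene. Grik5, the other high-affinity subunit, had 818, 1905 and 1323 bp in the cocaine and 428, 0 and 455 bp in the saline libraries of WT mice, without overlap. In the cKO, Grik5 had peaks only in the libraries numbered 1 (1235 bp after cocaine, 1572 bp after saline). Grik1 and Grik2, the remaining low-affinity subunits, had no peak in the 9 libraries.

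NMDA receptor genes ranged from peaks in all libraries to almost none. Grin2c, the GluN2C subunit, which gives receptors with weak magnesium block, was covered over 5285, 6014 and 4421 bp in WT cocaine libraries and over 2288, 1762 and 543 bp in WT saline libraries. In the cKO it had 7492 and 2010 bp after cocaine and 7053, 2313 and 130 bp after saline. As for Grik3, the WT treatments did not overlap and the cKO treatments did. Grin2c is short (18.1 kb) and had a recurrent region at each end, chr11:115264683-115268578 (8 of 9 libraries), which also reaches into the neighboring gene Fdxr, and chr11:115248697-115251450 (7 of 9).

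Grin1, the obligatory subunit of NMDA receptors, had a peak at chr2:25289749-25292680 in all 9 libraries, at its lower-coordinate end. Its covered length was 1544, 2955 and 1514 bp after cocaine and 2263, 1589 and 758 bp after saline in WT mice, and 3166 and 1377 bp after cocaine and 2293, 399 and 227 bp after saline in the cKO. The treatments overlapped in both genotypes. The gene Lrrc26 lies in the same region, and 39.7% of the covered length assigned to Grin1 in the 9 libraries lay inside another coding gene, so that the peak cannot be attributed to Grin1 alone. Grin2d, the GluN2D subunit, which is mainly a subunit of early development and of interneurons, had 2687, 2566 and 1517 bp after cocaine and 2081, 1677 and 0 bp after saline in WT mice, and 4346 and 150 bp after cocaine and 4513, 0 and 0 bp after saline in the cKO. Grin3b, a glycine-binding subunit, had 561, 1013 and 160 bp in the cocaine and 96, 0 and 0 bp in the saline libraries of WT mice, and in the cKO it had peaks only in the libraries numbered 1 (2267 bp after cocaine, 2616 bp after saline).

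Grin2a, Grin2b and Grin3a carried little of the mark. Grin2a, the GluN2A subunit that accumulates as synapses mature, had 0, 145 and 0 bp after cocaine and 347, 0 and 0 bp after saline in WT mice, and 2664 and 0 bp after cocaine and 5151, 0 and 385 bp after saline in the cKO. Outside the cKO libraries numbered 1, this is at most 385 bp in a gene of 428 kb. Grin2b, the GluN2B subunit, had peaks in 3 of the 9 libraries, of 563, 418 and 223 bp, and Grin3a had none. Among the AMPA receptor genes, which supply most fast excitatory current, Gria1 had a peak of 117 bp in 1 of the 9 libraries, Gria2 had a peak (179 bp) only in the cKO saline library numbered 1, and Gria4 had no peak in any of the 11 libraries. A gene without a peak had no region that the caller passed in that library, which does not show that the mark was absent.

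**Figure D4:**
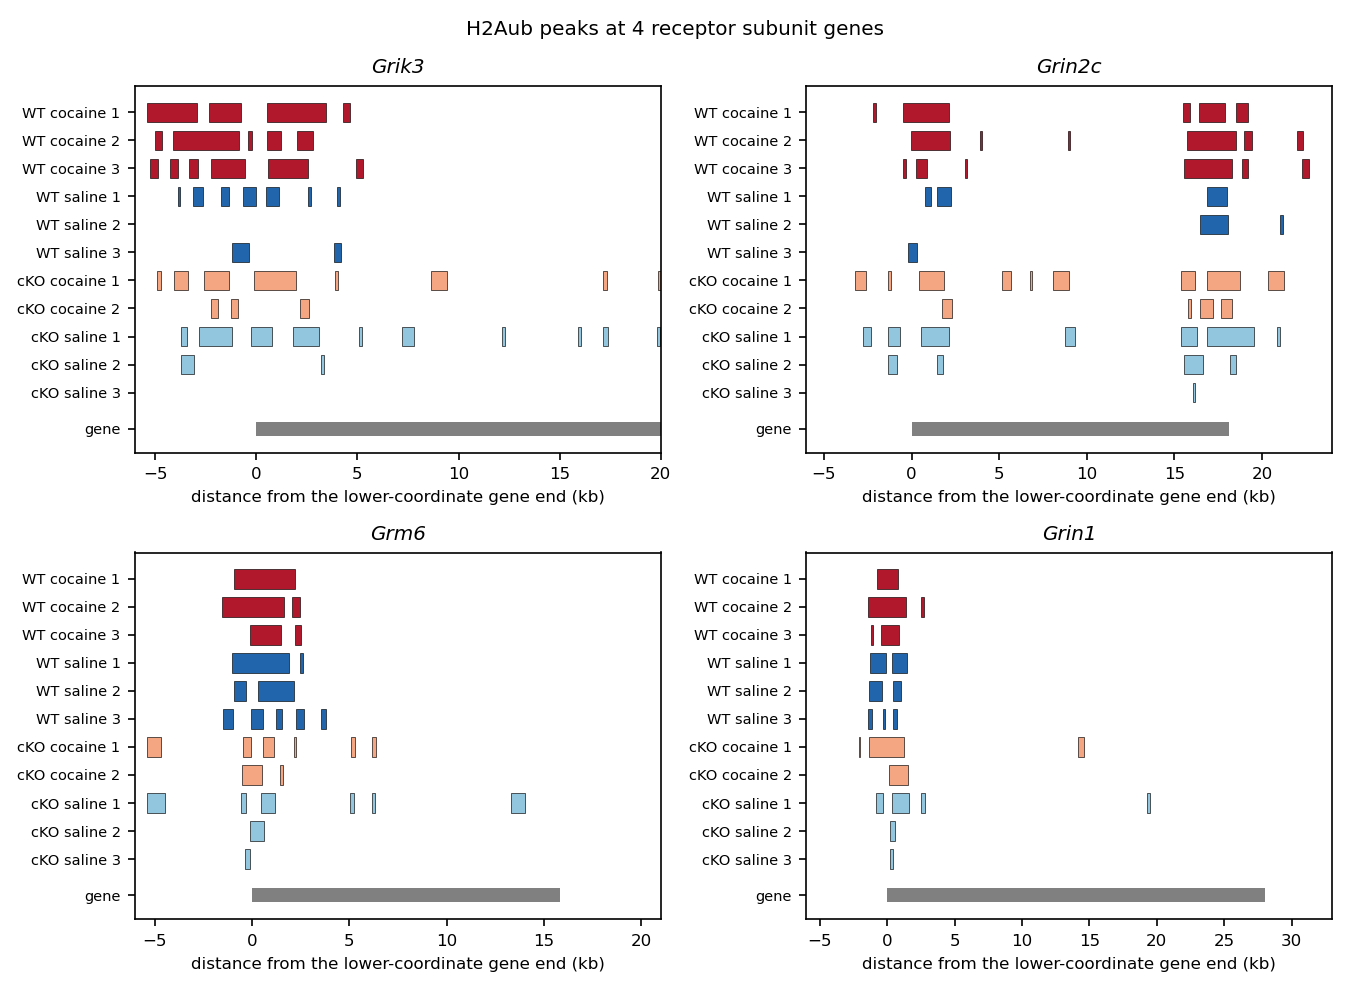
Position of H2Aub peaks (boxes, colored by group) in the 11 libraries around Grik3, Grin2c, Grm6 and Grin1, as distance in kb from the lower-coordinate end of the gene; the grey bar is the gene, which for Grik3 runs on beyond the plotted 20 kb. Peaks at Grm6 and Grin1 lie near the lower-coordinate end in all 11 libraries, whereas the widest peak of each WT saline library was narrower than that of each WT cocaine library at Grik3 (288 to 879 against 1980 to 3259 bp over the gene) and Grin2c (543 to 1627 against 2604 to 2779 bp).

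Of the metabotropic receptor genes, 3 of the 4 in group III, 1 of the 2 in group II and neither of the 2 in group I had a peak in at least 5 of the 9 libraries. Grm6, a group III receptor gene, which is best known from retinal ON bipolar cells, had 3117, 3579 and 1852 bp in the cocaine and 3091, 2454 and 2118 bp in the saline libraries of WT mice, with overlap. In the cKO it had 1798 and 1183 bp after cocaine and 2628, 724 and 242 bp after saline. A region at its lower-coordinate end (chr11:50848827-50853059) was present in all 9 libraries, and 89.7% of its covered length over these libraries lay at that end. Grm4, a presynaptic autoreceptor, had 2110, 2794 and 1229 bp after cocaine and 2381, 727 and 800 bp after saline in WT mice, and 7218 and 514 bp after cocaine and 9478, 0 and 410 bp after saline in the cKO, with its recurrent region just outside the higher-coordinate end (chr17:27513375-27515253). Both cKO libraries numbered 1 were the highest for Grm4.

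Grm8, another presynaptic receptor, had 1653, 994 and 362 bp after cocaine and 732, 375 and 0 bp after saline in WT mice, and 3333 and 1119 bp after cocaine and 3301, 153 and 227 bp after saline in the cKO. Although the gene spans 860 kb, 97.8% of the covered length in the 9 libraries lay at the higher-coordinate end (recurrent region chr6:28133523-28135084). Grm7, the fourth group III receptor and a widespread presynaptic one, had no peak in the 9 libraries. In group II, whose receptors are autoreceptors and heteroreceptors that limit transmitter release, Grm2 had 415, 655 and 317 bp after cocaine and 0, 299 and 0 bp after saline in WT mice, and 1468 and 398 bp after cocaine and 1151, 527 and 0 bp after saline in the cKO. Summed over the gene window, each WT cocaine library exceeded each WT saline library for Grm2. This did not hold within its recurrent region (chr9:106655124-106655990), where WT cocaine library 2 had 113 bp under a peak against 299 bp in WT saline library 2. The other peaks of that cocaine library, of 252 and 290 bp, lay beside the region. Grm3 of group II had a peak of 587 bp in 1 of the 9 libraries, a WT saline library, and Grm5 of group I had none.

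Grid1 encodes a delta receptor, a synapse-organizing protein of the ionotropic family that is not gated by glutamate. It had 657, 1755 and 584 bp after cocaine and 1692, 297 and 1127 bp after saline in WT mice, and 4529 and 636 bp after cocaine and 8380, 1016 and 395 bp after saline in the cKO, with treatments that overlapped in both genotypes. Its recurrent region (chr14:34821355-34823197) was present in all 3 WT cocaine libraries and in 1 WT saline library. The same region was present in both cKO cocaine libraries and in all 3 cKO saline libraries. Each of the 11 recurrent regions was present in all 3 WT cocaine libraries, and 3 of them in all 3 WT saline libraries.

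Of the 13 genes for alpha, beta, gamma, delta and pi subunits of GABA-A receptors, 11 had no peak in the 9 libraries, where 58.1% of all coding genes had none. With the cKO libraries numbered 1 included, 12 of the 13 had a peak in at least 1 library. The 2 genes with a peak in the 9 libraries were Gabra5 and Gabrd, and of the 3 rho genes Gabrr1 and Gabrr3 had peaks of at most 172 bp. Gabra5, whose subunit serves mainly extrasynaptic receptors, had 0, 321 and 295 bp after cocaine and 0, 0 and 0 bp after saline in WT mice, and 900 and 680 bp after cocaine and 429, 0 and 0 bp after saline in the cKO. Its shared region, chr7:57508162-57509307, lay 101 kb from the lower-coordinate end, within the gene. Gabrd, the delta subunit of tonic inhibition in thalamic relay cells, had 163 bp in a WT cocaine library and 129 and 765 bp in WT saline libraries, all of which lay inside the overlapping gene Cfap74. Gabra4 and Gabrb2, whose subunits are abundant in thalamic receptors, had no peak in the 9 libraries, and Gabra6, known from cerebellar granule cells, had none in any of the 11.

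The cKO libraries numbered 1 had peaks where the other libraries had none. Of the 19 receptor genes without a peak in the 9 libraries, 11 had a peak in both of these libraries, 6 in 1 of them and 2 (Gabra6 and Gria4) in neither. Of the coding genes without a peak in the 9 libraries, 22.9% had one in both, 23.2% in 1 and 53.9% in neither. Among GABA-A genes outside the rho class, 10 of 13 had a peak in the cocaine and 9 of 13 in the saline library numbered 1, where 52.6 and 61.2% of all coding genes had one. Fold enrichment at Gabrb2, a beta subunit of synaptic receptors, reached 13.4 and 16.1 in these libraries, whereas the median over all receptor gene peaks was 3.94 and 4.04. When each list was cut to its 7271 peaks of lowest q, 14 and 11 receptor genes had a peak in these libraries against 6 to 13 in the others, and 13.2 to 15.7% of all coding genes had one across the 11 libraries. Grin2c then had no peak in either of them, while it kept peaks in each of the other 9 libraries.

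Cocaine was compared with saline in WT mice to ask whether repeated exposure changed the mark at receptor genes. The covered length summed over the receptor genes was 33398, 34777 and 21838 bp in cocaine libraries and 21561, 10863 and 8100 bp in saline libraries. It was 2.37-fold larger after cocaine (log2 difference 1.25 ± 0.47, SE), and all 3 cocaine libraries exceeded all 3 saline libraries. Over all coding genes the log2 difference was 0.73 ± 0.31, and over the whole lists 0.79 ± 0.36. Scaled to the covered length of each list, the log2 difference in receptor genes was 0.46, and the treatments overlapped. Receptor genes held 0.194, 0.232 and 0.211% of the list in cocaine libraries and 0.195, 0.196 and 0.0965% in saline libraries. With each list cut to its 7271 peaks of lowest q, the log2 difference in receptor genes was 1.37 ± 0.57 (SE). The sums were then 18868, 22132 and 15644 bp after cocaine and 13348, 7870 and 3574 bp after saline, and they did not overlap. The same cut gave 0.50 over all coding genes and 0.50 over the whole lists. The share of receptor genes with a peak was 8.94 percentage points higher (SE 3.90), against 5.13 (SE 4.15) over all coding genes. No test was run on these sums.

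In 5 of the 41 genes (12.2%), each WT cocaine library exceeded each WT saline library, namely Grik3, Grin2c, Grik5, Grin3b and Grm2, and in none was the order reversed. Among all coding genes 6.13% were higher in this way and 0.111% lower. The mean covered length was 7515 bp (SD 1484, n = 3) against 1986 bp (SD 2076, n = 3) for Grik3 and 5240 bp (SD 797, n = 3) against 1531 bp (SD 895, n = 3) for Grin2c. Exact permutation tests for these 5 genes gave p = 0.1 each (two-sided), which is the smallest value that 3 against 3 libraries allow. Relative to the covered length of each list, Grik3 and Grin3b still did not overlap (background 2.98%), and Grm6 was lower in each cocaine library (background 0.978%). Leaving out WT cocaine replicate 3 raised the count from 5 to 10, and the share over all coding genes then rose to 12.2%.

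The 11037 coding genes with a covered base in at least 2 libraries, among them 33 receptor genes, 11 of which passed this filter through the cKO libraries numbered 1 alone, were tested with limma on log2(covered length + 100 bp). No receptor gene passed an adjusted p of 0.05 in WT, where 0.154% of all genes did, and 3 receptor genes were higher at an unadjusted p under 0.05, as were 4.53% of all genes tested. The lowest adjusted p, 0.0683, was that of Grik3 (log2 difference 2.39 ± 0.63, SE), followed by Grik4 (2.49 ± 0.90, adjusted p = 0.678) and Grin2c (1.90 ± 0.72, adjusted p = 0.832). The Grik3 value depended on the fit. With peaks of q at most 0.05, Grik3 passed (adjusted p = 0.03601 by limma), and over libraries left out in turn its adjusted p ranged from 0.005325 without WT saline replicate 1 to 1 without WT saline replicate 2. Without both cKO libraries numbered 1, which lowers the genes tested to 6560 and the receptor genes to 17, its adjusted p was 0.228, and 5 receptor genes were higher at an unadjusted p under 0.05 (background 15.5%). Without the trend of spread on level that limma was given, Grik3 had an unadjusted p of 0.089.

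**Figure D5:**
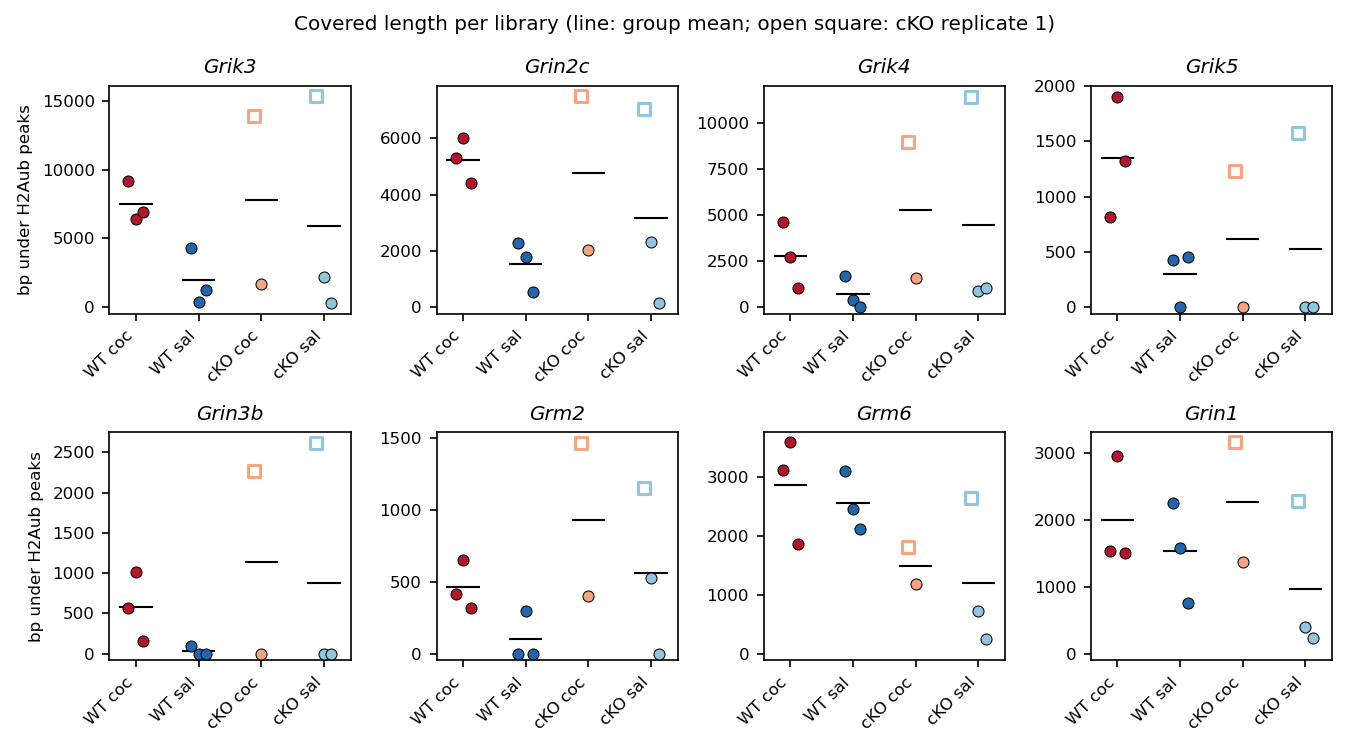
Covered length in bp of 8 receptor genes by group (coc, cocaine; sal, saline); each point is 1 library, open squares are the cKO libraries numbered 1 and the line is the group mean. WT cocaine and WT saline points do not overlap for Grik3, Grin2c, Grik5, Grin3b and Grm2, and overlap for Grik4, Grm6 and Grin1.

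Elements, which are merged peaks covered in at least 2 libraries of a group, were compared between treatments. In WT, 6 receptor genes (14.6%; Grm6, Grin2c, Grm4, Grin1, Grik3 and Grin2d) had such an element after both treatments, as did 12.1% of all coding genes. A further 7 genes (17.1%) had one only after cocaine, namely Grik4, Grik5, Grid1, Grin3b, Grm2, Grm8 and Gabra5. The background for elements found only after cocaine was 6.84% of coding genes, and for elements found only after saline, of which the receptor genes had 0, it was 1.51%. Of the 7 genes, 6 also had a peak in 1 or more saline libraries, so that the distinction rests on recurrence and not on absence. With lists of equal length, 3 genes were specific to cocaine (background 3.77%).

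In cKO mice, as in WT mice, the treatments were not separated at most receptor genes. The log2 difference in summed covered length was 1.11 ± 1.99 (SE), with 76033 and 11459 bp after cocaine and 94466, 8197 and 3291 bp after saline. With lists of equal length it was 0.16 ± 0.28 (SE), against -0.21 over all coding genes. The single remaining cocaine library exceeded both remaining saline libraries when those numbered 1 were left out (log2 difference 1.14, against 0.87 over all coding genes). Gabra5 was the only gene in which both cocaine libraries exceeded all saline libraries (background 2.66%), with a log2 difference of 2.34 ± 1.56 (SE) and an adjusted p of 1 by limma. None of the 41 was lower in this way (background 0.0532%). The separation of Gabra5 holds for peaks summed over the gene window, and its cocaine libraries shared no peak. Within chr7:57508162-57509307, cKO cocaine libraries had 116 and 680 bp under peaks and cKO saline libraries 114, 0 and 0 bp. Relative to the covered length of each list, Gabrr3, Grin1 and Gabra5 were higher (background 3.51%) and none was lower (background 0.257%). Without both libraries numbered 1, 8 genes were higher in the cocaine library (Grm6, Gabrr3, Grm4, Grin1, Grm8, Grin2d, Gabra5 and Grik4), and the same comparison then held for 18.6% of coding genes. Leaving out only cKO saline replicate 1 also gave 8 genes (background 15.8%), and leaving out cKO cocaine replicate 2 gave 12 (background 22.1%).

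Elements shared by at least 2 cKO libraries were present in 10 receptor genes after cocaine (background 13.8%), in 10 after saline (background 2480 of 20661 genes) and after both in 9 (background 9.61%). Grin2d had such an element only after cocaine (background 4.18%) and Grin2a only after saline (background 2.39%). The Grin2d and Grin2a elements each used a library numbered 1, as did every cKO cocaine element, because that group has 2 libraries. Without cKO saline replicate 1, 5 genes were specific to cocaine (background 8.06%) and 0 to saline (background 0.411%). By limma, 0 receptor genes passed an adjusted p of 0.05 (0.0544% of all genes did) and 0 had an unadjusted p under 0.05, where 2.05% of all genes tested were higher and 0.0362% lower. Without both libraries numbered 1, 1 receptor gene of 17 was higher at this p (Gabra5; background 8.96%). The treatment effect was also compared between genotypes with an interaction term, and no receptor gene had an unadjusted p under 0.05, nor did any without both libraries numbered 1. Of all genes tested, 0.118% were higher and 0.0997% lower at this p, and 2.35 and 0.777% without those libraries. For Grik3 the difference between the effects (cKO minus WT) was -1.30 ± 0.94 on the log2 scale (SE, adjusted p = 1 by limma).

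Genotypes were compared within each treatment, with the same libraries that entered the treatment comparisons. After saline, the summed covered length differed by a log2 value of 0.14 ± 1.51 (SE, cKO minus WT), and after cocaine by 0.0066 ± 1.38 (SE). Both values rest on the libraries numbered 1. Without them, the log2 difference was -1.25 after saline, with 2 cKO libraries against 3, and -1.36 after cocaine, with 1 cKO library against 3, beside -0.46 and -0.33 over all coding genes. The share of receptor genes with a peak differed by 14.6 percentage points with them and by -7.72 points without them after saline (cKO minus WT), and by 21.1 and -8.13 points after cocaine. Over all coding genes these differences were 10.1 and -5.36 points after saline and 12.6 and -2.07 points after cocaine. With all libraries kept but lists of equal length, the log2 difference in summed covered length was -0.60 ± 0.62 (SE) after saline. After cocaine it was -1.82 ± 0.16 (SE). The values over all coding genes were -0.55 and -1.25, and over the whole lists -0.46 and -1.07. The cocaine sums were then 5058 and 5553 bp in the cKO against 18868, 22132 and 15644 bp in WT, without overlap. The saline sums overlapped.

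No receptor gene was separated between the genotypes after saline (background 0.344% higher and 0.387% lower in the cKO). Relative to the covered length of each list, 0 were higher and 2 lower in the cKO (Grm6 and Grin1; background 0.595 and 1.34%). After cocaine, Grm6 was lower in both cKO libraries (1798 and 1183 bp) than in all WT libraries (background 1.87%), with a mean ratio of 0.523 and an exact permutation p of 0.2 (two-sided). Gabra5 and Gabrr3 were higher in both cKO cocaine libraries (background 3.80%). Relative to the covered length of each list, 3 genes were higher (Gabrr3, Grm8 and Gabra5; background 4.16%) and 1 lower (Grm6; background 2.82%). By limma no receptor gene passed an adjusted p of 0.05 in either comparison (0.00906% of all genes did in each), and 1 receptor gene in each was higher in the cKO at an unadjusted p under 0.05. Of all genes tested, 0.562% were higher and 0.598% lower at this p after saline, and 1.30% higher and 0.181% lower after cocaine. After saline the receptor gene was Grik4 (log2 difference 2.40 ± 0.90, SE, adjusted p = 0.838). After cocaine it was Gabrr3, which had 0 bp in each WT library and so entered the fit only through the cKO libraries. Without both libraries numbered 1, no receptor gene was higher in the cKO (background 0.305%) and 4 were lower at this p after saline (Grm6, Grm4, Grin1 and Grin2d; background 6.20%), and 0 were higher (background 2.1%) and 3 lower after cocaine (Grik5, Grin2d and Grin3b; background 3.89%). None of the 17 receptor genes then tested passed an adjusted p of 0.05 by limma. In this fit the single cKO cocaine library is assumed to vary like the libraries of the other groups.

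Genes that work with the receptors were described for comparison. The list of 40 genes held GABA-B and glycine receptor subunits, auxiliary subunits such as the Cacng family, and postsynaptic scaffolds such as Shank1, and 21 of them (52.5%) had a peak in at least 5 of the 9 libraries, against 26.8% of the receptor genes and 19.6% of all coding genes. Those with a peak in all 9 were Cacng8 and Shisa6, which modulate AMPA receptors, Gsg1l, another AMPA receptor auxiliary subunit, and the scaffold genes Dlgap2, Grip2, Shank1 and Shank2. In WT mice, 5 of the 40 had an element only after cocaine (background 6.84%) and 4 only after saline (background 1.51%). In 5 (Dlgap2, Gsg1l, Homer2, Shank2 and Shisa9) all cocaine libraries exceeded all saline libraries (background 6.13%). By limma none of the 36 that were tested passed an adjusted p of 0.05 in any of the 4 comparisons, with 3 higher at an unadjusted p under 0.05 in WT (background 4.53%) and 1 in the cKO treatment comparison (background 2.05%). The lowest adjusted p in WT was that of Dlgap2 (log2 difference 1.78 ± 0.57, SE, adjusted p = 0.370).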

How the data were processed

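H2Aub ChIPmentation libraries of thalami (3 WT cocaine, 3 WT saline, 2 cKO cocaine, 3 cKO saline) were analysed from peak lists, and 4 total input libraries were not analysed here. As the study describes, reads were trimmed by the authors (Cutadapt) and mapped to mm10 (Bowtie2, version 2.3.4.1), and MACS2 (version 2.1.1.20160309.3) was run in broad mode against input, separately for each library. The deposited lists give peak coordinates, a whole-number score, the fold enrichment over the control as a linear ratio, and each peak's −log10 q and −log10 p. Their highest q was 0.0997, and all peaks were used. The depth of each library is unknown because the lists hold no read counts, although the study states a minimum, and covered length is not corrected for it.

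Genes came from a RefSeq table of GRCm38.p6 (the coordinates of mm10), without strand. X-linked subunits lay outside the rule. The single values of 4 members are not reported here, and the counts and sums include them. Peaks were joined to windows (gene body and 5 kb on each side) with Python 3.11.15 (pandas 2.3.3, numpy 2.4.6). Overlapping windows were merged in sums. Elements were merged peaks covered in at least 2 replicates of a group. Genes covered in at least 2 of 11 libraries were fitted together with limma 3.58.1 (R 4.3.3) on log2(bp + 100), in 4 groups, with Benjamini-Hochberg adjustment over 11037 genes. The prior degrees of freedom were infinite, so the spread of each gene was set by its level. The fit was also run on simulated, normally distributed values, where only recovery of the mean added change was required. That run does not show how often the fit errs on these lists. Single genes were compared by exact permutation tests of mean covered length, two-sided, which cannot go below 0.10 here. Labels call replicates independent biological samples of pooled mice.

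Members and lists were chosen with earlier results of these data known. Genes given in full were the 12 with the most libraries holding a peak, those with a treatment-specific element, Grin2a and Gria4, and those whose cocaine and saline libraries did not overlap. Alternatives comprised a q of 0.05, lists cut to 7271 peaks, gene-end windows (5 kb outside, 2 kb inside), 0.5 of a peak inside the window, covered length per library total, a pseudocount of 500 bp, no filter, elements in all replicates, a replicate block and leaving out libraries.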

Additional observations from a re-analysis of the deposited data

How the results depend on the processing

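The lists give no read counts, so no value is corrected for depth, and with 2 or 3 libraries per group single genes cannot pass an exact test. Scaled to each list, the WT log2 ratio of covered length was 0.456. With lists of equal length it was 1.37 in WT, where the share differed by 7.32 points, and 0.156 in the cKO. In these lists, the cKO minus WT difference after cocaine was -3.25 percentage points for the share and -1.82 for the log2 ratio. The log2 ratio over all coding genes was then -1.25, and over the whole lists -1.07. Without both cKO replicates 1 the differences were -8.13 points and -1.36, beside -2.07 points and -0.33 over all coding genes. Cocaine-specific genes numbered 3 in WT (3.77% of all coding genes) and 0 in the cKO (0.155%) with lists of equal length, and in the cKO 0 with gene-end windows (3.62%) and 6 with elements in all replicates (8.22%). Saline-specific genes in the cKO numbered 3 at a q of 0.05 (1.97%), 4 with equal lists (5.42%), 2 with gene-end windows (2.09%) and 0 with elements in all replicates (0.203%). Genes higher in all WT cocaine libraries numbered 3 at a q of 0.05 (5.69% of all coding genes), 3 with equal lists (3.21%) and 2 per list total (2.98%). In the cKO they numbered 0 with gene-end windows (3.20%), 3 per list total (3.51%) and 8 without both replicates 1 (18.6%). These alternatives for non-overlap, and the fit without a trend, were chosen after seeing the data.

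After removing group means, same-numbered WT libraries of the 2 treatments correlated at 0.060, 0.019 and 0.017, and differently numbered ones at -0.123 to 0.106. In the cKO, 2 same-numbered pairs correlated at 0.437 and 0.376. These 2 values are not independent, because the 2 cKO cocaine libraries mirror each other once their mean is removed. Removing the mean of 2 or 3 libraries constrains such correlations, so they cannot decide whether the replicate numbers pair the samples. With a replicate block, limma called 1 receptor gene in WT (Grik3, adjusted p = 0.007736) of 41 genes called, against 17 called as reported, and 0 in the other 3 comparisons, where 2, 2 and 1 genes were called. Limma also called 1 (Grik3) at a q of 0.05, of 15 genes. The cKO log2 difference of Grik3, 1.10 over all libraries, was -0.386 with equal lists, -0.380 without cKO cocaine replicate 1 and -0.244 without cKO saline replicate 3, and that of Grin2c went from 1.34 to -0.0538 without cKO saline replicate 3. Over all libraries left out in turn these ran from -0.380 to 2.57 and from -0.0538 to 2.43.

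Leaving out each library in turn gave, for the share, 5.69 to 10.6 points in WT, -13.8 to 44.7 in the cKO, -7.72 to 26.4 for cKO minus WT after saline and -8.13 to 50.4 after cocaine. The log2 ratio of covered length ran from 0.94 to 1.65, -0.25 to 2.51, -1.25 to 1.17 and -1.36 to 1.37 in the same order. Cocaine-specific genes ran from 5 to 10 in WT (3.65 to 11.6% of all coding genes) and from 4 to 5 in the cKO (5.89 to 8.06%), saline-specific genes were 0 in WT (0.295 to 2.93%) and 0 to 1 in the cKO (0.411 to 1.21%), and genes with no overlap ran from 5 to 10 in WT and from 1 to 12 in the cKO, where the share of all coding genes ran from 6.50 to 12.2% and from 2.72 to 22.1%. Limma called 0 to 1 in WT (1 without WT saline replicate 1, where 34 genes were called, against 3 to 18 without the others) and 0 in the other comparisons, where 0 to 7 genes were called. Element counts in the cKO could not be made without cKO cocaine replicate 1, which leaves 1 cocaine library.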

Other observations

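X-linked receptor subunit genes lay outside the rule on chromosomes. Gabra3, Gabre and Gabrq had no peak in any of the 11 libraries, and Gria3 had a covered length of 646 bp in the cKO saline library numbered 1 and none in the others.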
